A study of Mus musculus with 5 samples.

Results

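Marker genes of macrophages and other myeloid cells were followed in thoracic aortas of mice that express a dominant negative PPARγ in smooth muscle. The list held 32 genes, read by their probe sets on the Mouse Genome 430 2.0 array, and 31 of them had a probe set that the platform annotation assigns to that gene alone. Each gene was read from its brightest probe set, judged by the mean of all 5 arrays, out of 57 such probe sets in all and 18193 genes named on the array. Lilrb4a, an inhibitory receptor of myeloid cells, was read only by a probe set shared with another gene and has no value here. All mice were male and of the strain C57BL/6. One group was non-transgenic littermates (2 arrays), and the other carried human PPARγ with the P467L mutation, driven in vascular smooth muscle by the promoter of smooth muscle myosin heavy chain (3 arrays). Each RNA was a pool of 6 to 8 aortas, so animals cannot be told apart, and no age was given. Values are log2 expression levels, where a difference of 1 is a doubling.

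Macrophages live in the wall of the aorta, mostly in the adventitia, and take up debris, antibody-coated particles and modified lipid. They depend on the growth factor receptor Csf1r, and many of their genes are switched on by the transcription factor PU.1, which binds a purine-rich site with the core GAGGAA. PPARγ is itself active in macrophages, but the promoter of this transgene is one of smooth muscle. Macrophages are thus not the intended site of the mutant receptor, and which cells made each transcript was not measured. In RNA of whole tissue, fewer cells of a type and less RNA per cell cannot be told apart.

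The Fc receptor genes Fcgr3 and Fcgr2b differed in opposite directions in their brightest probe sets, but the direction of Fcgr2b depended on the probe set. Trem2, by its brightest probe set, had the largest difference among the markers and the further lists of genes linked to myeloid cells. The stretches around the transcription start are shown for 6 genes: these, Laptm5, and C1qb and C1qc, neighbours of one gene cluster. Each runs 5′ to 3′ on the strand of the gene from 250 bases before the start to 50 bases after it, from RefSeq on GRCm38.p6, and capitals mark GAGGAA or its reverse complement TTCCTC.
C1qb (chr4:136886151-136886450, minus strand): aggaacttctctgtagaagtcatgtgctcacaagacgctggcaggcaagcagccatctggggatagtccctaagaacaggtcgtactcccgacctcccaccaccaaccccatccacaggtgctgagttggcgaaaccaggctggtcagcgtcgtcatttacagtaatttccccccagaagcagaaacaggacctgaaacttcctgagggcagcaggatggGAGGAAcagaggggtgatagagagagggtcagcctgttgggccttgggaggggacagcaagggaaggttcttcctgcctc
C1qc (chr4:136892865-136893164, minus strand): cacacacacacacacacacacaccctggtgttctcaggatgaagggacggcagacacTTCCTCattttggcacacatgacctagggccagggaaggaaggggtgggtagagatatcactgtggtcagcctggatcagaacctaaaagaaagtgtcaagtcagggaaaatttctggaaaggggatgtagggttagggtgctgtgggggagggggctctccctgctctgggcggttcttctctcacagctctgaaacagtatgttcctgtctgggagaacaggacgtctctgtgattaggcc
Laptm5 (chr4:130913066-130913365, plus strand): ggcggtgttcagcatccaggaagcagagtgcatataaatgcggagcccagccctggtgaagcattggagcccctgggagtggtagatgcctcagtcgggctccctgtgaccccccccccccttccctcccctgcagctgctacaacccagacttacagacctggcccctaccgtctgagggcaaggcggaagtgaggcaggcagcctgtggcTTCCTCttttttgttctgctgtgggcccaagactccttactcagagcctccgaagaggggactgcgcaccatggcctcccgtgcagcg
Fcgr3 (chr1:171059354-171059653, minus strand): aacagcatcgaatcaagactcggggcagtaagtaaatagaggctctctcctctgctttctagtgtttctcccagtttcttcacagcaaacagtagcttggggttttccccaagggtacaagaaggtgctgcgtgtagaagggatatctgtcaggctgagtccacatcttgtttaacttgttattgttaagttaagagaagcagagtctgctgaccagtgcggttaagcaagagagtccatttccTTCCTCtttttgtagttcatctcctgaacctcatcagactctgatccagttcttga
Fcgr2b (chr1:170976022-170976321, minus strand): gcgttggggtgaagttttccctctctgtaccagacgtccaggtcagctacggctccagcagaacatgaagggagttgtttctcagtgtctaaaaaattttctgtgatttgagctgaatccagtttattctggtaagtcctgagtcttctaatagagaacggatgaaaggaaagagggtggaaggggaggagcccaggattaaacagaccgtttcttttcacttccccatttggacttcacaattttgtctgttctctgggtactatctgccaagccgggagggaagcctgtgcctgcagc
Trem2 (chr17:48346151-48346450, plus strand): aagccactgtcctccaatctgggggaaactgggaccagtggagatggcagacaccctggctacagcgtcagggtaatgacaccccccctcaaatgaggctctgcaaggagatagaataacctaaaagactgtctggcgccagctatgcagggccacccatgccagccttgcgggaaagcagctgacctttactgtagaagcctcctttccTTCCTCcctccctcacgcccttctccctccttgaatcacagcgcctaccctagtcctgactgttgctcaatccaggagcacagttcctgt
GAGGAA stood once in 5 of these windows and was not found in that of Fcgr2b. It was on the gene's own strand in C1qb, beginning 30 bases before the start, and on the opposite strand in the others, beginning 193 bases before the start in C1qc, 38 in Laptm5, 6 in Fcgr3 and 40 in Trem2. Of the 31 measured markers 23 matched the promoter table, and 14 of these held GAGGAA on either strand in at least 1 window, beside 31.3% of all genes in the table. The longer string GAGGAAGT, which contains it, stood in 4 of the 23, those of C1qc, Cd53, Ctss and Pf4, beside 3.69% of all genes. A direct repeat, AGGTCA followed by any 1 base and AGGTCA again, of the kind bound by PPARγ with its partner RXR, was found in 0 of the 23 and in 0.0481% of all genes. These matches describe letters within 300 bases and not binding.

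The markers leaned toward higher levels in P467L aortas, by a small amount and without a gene that passed the test. The mean was higher in P467L aortas for 23 of 31 genes, beside 56% of all named genes, and lower for 8, with a median difference of 0.14 where the median over all named genes was 0.02. With array weights, which favoured P467L replicate 2, the median was -0.022. The differences ran from -0.37 for Ptprc to 0.36 for C1qb. At a limma adjusted p of 0.05 over all 45037 probe sets 0 of the 31 markers passed, beside 0% of all probe sets. The smallest adjusted p among the markers was 0.536, that of Fcgr2b. At an unadjusted p of 0.05, 2 markers lay past the threshold in the higher direction, C1qb and Laptm5, beside 6.94% of all named genes, and 1 in the lower direction, Fcgr2b, beside 2.51%.

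All 3 P467L arrays lay above both non-transgenic arrays in 7 markers: C1qa, C1qb, C1qc, Laptm5, Fcer1g, Fcgr3 and Tyrobp. Such a separation was found in 16.1% of all named genes. All 3 lay below in Fcgr2b and Cx3cr1, beside 6.55% of named genes. The 7 higher markers were all among the 22 whose mean level was at or above the median of named genes, 7.40. Bright genes in general leaned the same way: of the 9099 named genes at or above that level 68.5% had a higher mean in P467L aortas and 26.4% had all 3 P467L arrays above both others. Of the 22 bright markers 18 had a higher mean. At an unadjusted p of 0.05 the 22 held 2 higher markers, beside 11.2% of bright genes, and 1 lower, beside 2.76%. All 3 P467L arrays lay below both others in 1 bright marker, Fcgr2b, beside 6.04% of bright genes. Read against bright genes, 7 of 22 is thus close to the background, while the median difference of the 22 markers, 0.15, compares with 0.05 for bright genes. The 9 dimmer markers had a median difference of 0.03, with 5 higher and 4 lower, and all named genes below the median level had -0.01.

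**Figure D1:**
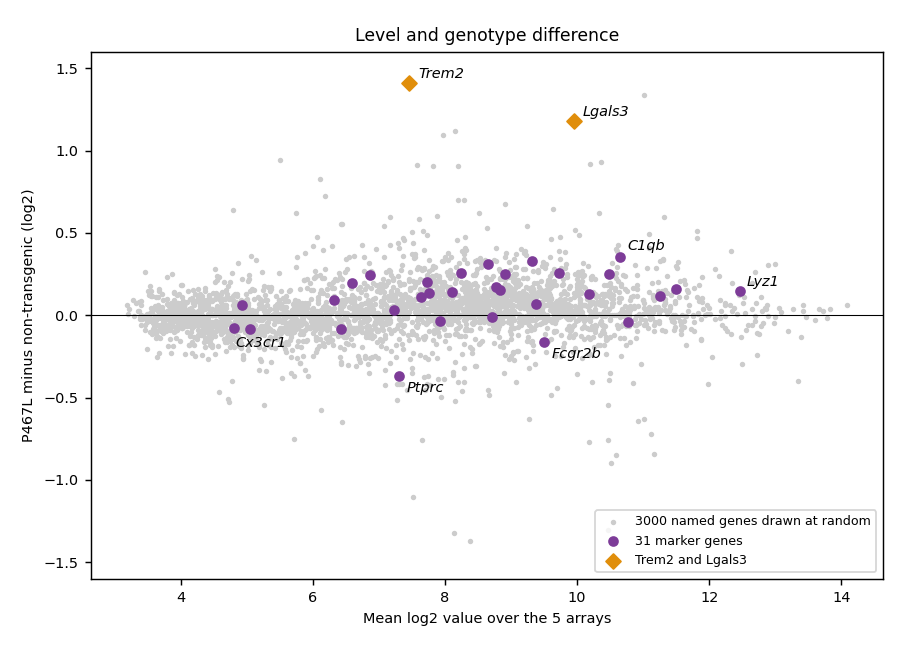
Mean log2 level over the 5 arrays (x axis) against the difference between P467L and non-transgenic aortas (y axis, log2) for the 31 marker genes, for Trem2 and Lgals3, and for 3000 named genes drawn at random, of which 1 lies outside the axis. Most markers lie slightly above the 0 line among the bright genes, and Trem2 (1.41) and Lgals3 (1.18) lie far above them.

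The C1q genes had the highest group median. C1qa, C1qb and C1qc encode the chains of C1q, the recognition protein of the classical complement pathway, which in tissues comes mainly from macrophages, and they lie side by side with no other gene between them in the gene table. C1qb measured 10.41 and 10.46 in non-transgenic aortas, against 10.98, 10.61 and 10.78 in P467L replicates 1 to 3. Its difference was 0.36 (SE 0.12, 95% interval 0.03 to 0.68), or 1.28-fold, with a limma adjusted p of 0.629. The other probe sets of C1qb gave 0.32 and 0.36 (SE 0.16 for each), with 95% intervals that include 0. Both have the suffix _x_at, which marks possible binding to other transcripts. C1qa measured 10.33 and 10.32 against 10.78, 10.40 and 10.55, a difference of 0.25 (SE 0.12). C1qc measured 9.50 and 9.65 against 10.11, 9.66 and 9.73, a difference of 0.26 (SE 0.16). In all 3 genes P467L replicate 1 was the highest array, replicate 3 came next, and replicate 2 lay above the nearer non-transgenic array by 0.15 in C1qb, 0.07 in C1qa and 0.01 in C1qc. Leaving out P467L replicate 1 lowered the difference of C1qc to 0.12 and that of C1qa to 0.15, each by more than 1.5 times.

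Receptors for antibody and their signalling partners were also high in P467L replicate 1. Tyrobp encodes DAP12, an adaptor that passes on signals from activating receptors of myeloid cells, among them TREM2. It measured 9.08 and 9.16 in non-transgenic aortas and 9.66, 9.30 and 9.38 in P467L replicates 1 to 3, a difference of 0.33 (SE 0.13) with a limma adjusted p of 0.695. Fcgr3, an activating receptor for IgG, measured 8.34 and 8.60 against 8.90, 8.61 and 8.83, so that P467L replicate 2 was level with the higher non-transgenic array to within 0.01, and the difference was 0.31 (SE 0.13). Fcer1g, the signalling chain shared by Fc receptors, differed by 0.16 (SE 0.09), and Fcgr1, the high-affinity IgG receptor, by 0.24 (SE 0.11). A second, dimmer probe set of Fcgr1 gave 0.04 (SE 0.06). Without P467L replicate 1 Fcer1g gave 0.085, and without non-transgenic replicate 1 Fcer1g gave 0.10, Fcgr1 0.15 and Fcgr3 0.18.

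Fcgr2b, the inhibitory IgG receptor, which B cells also carry, was the exception in this group. Its brightest probe set measured 9.61 and 9.59 in non-transgenic aortas and 9.43, 9.40 and 9.49 in P467L aortas, a difference of -0.16 (SE 0.04). All 3 P467L arrays were below both others, by at least 0.10. Of its other 4 probe sets, 3 gave 0.04, 0.08 and 0.13, with groups that overlapped, and the dimmest gave -0.12. The direction of Fcgr2b therefore depends on the probe set.

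Genes of the lysosome and of bacterial killing were higher on average in 5 of 5 cases, by 0.11 to 0.25. All 5 were bright, and 68.5% of bright genes were higher. The 5 include Lyz1, whose bright values may not be its own. Laptm5, a lysosomal membrane protein of blood-derived cells, measured 8.73 and 8.77 against 9.13, 8.90 and 8.98, a difference of 0.25 (SE 0.08) and a limma adjusted p of 0.599. This probe set has the suffix _x_at, which marks possible binding to other transcripts. Of its 4 other probe sets the brighter ones gave 0.30 and 0.15 and the dimmest 0.06. Another gave -0.15, the only one with neither _x_at nor _s_at, a suffix for probes that match more than 1 transcript. Lyz2, the lysozyme of macrophages and neutrophils, measured 11.34 and 11.48 against 11.72, 11.36 and 11.62, and P467L replicate 2 lay within the non-transgenic range. Lyz1, the intestinal lysozyme, lies next to Lyz2 with no gene between them. It was the brightest marker, at 12.33 and 12.42 against 12.65, 12.35 and 12.56, through a probe set whose suffix, _x_at, marks possible binding to other transcripts. The only Lyz1 probe set without such a suffix measured 5.34 to 5.56 in all arrays, a difference of 0.00, so the bright values cannot be assigned to Lyz1 alone. Ctss, cathepsin S, which cuts elastin and the invariant chain, differed by 0.13 (SE 0.08), and Mpeg1, a pore-forming protein of macrophages, by 0.11 (SE 0.07). Without P467L replicate 1 Lyz2 and Lyz1 each gave 0.08, and without non-transgenic replicate 1 Ctss gave 0.087 and Mpeg1 0.013.

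Among the receptors that define the lineage, Csf1r measured 11.18 and 11.18 against 11.47, 11.12 and 11.30. P467L replicate 2 was the lowest of the 5 arrays and replicate 1 the highest, with a difference of 0.12 (SE 0.11, 95% interval -0.19 to 0.43). The other probe sets of Csf1r gave 0.14 and 0.20. Adgre1, which encodes the F4/80 antigen, measured 7.69 and 7.65 against 8.01, 7.64 and 7.77, a difference of 0.14 (SE 0.12). Both rested on P467L replicate 1: without it Csf1r gave 0.03 and Adgre1 0.035, and without replicate 2 they gave 0.205 and 0.22.

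Scavenger and uptake receptors did not share one order of arrays. Mrc1, the mannose receptor of tissue-resident macrophages, measured 9.32 and 9.34 in non-transgenic aortas and 9.32, 9.10 and 9.77 in P467L replicates 1 to 3. Cd163, the receptor for haemoglobin bound to haptoglobin, measured 8.68 and 8.64 against 8.81, 8.50 and 9.19. In both genes P467L replicate 3 was the highest array and replicate 2 the lowest, and the differences were 0.07 (SE 0.22) and 0.17 (SE 0.22). Without replicate 3 they were -0.12 and -0.005. Folr2, a folate receptor of resident macrophages, measured 8.67 and 8.76 against 9.01, 8.38 and 8.73, a difference of -0.01 (SE 0.20), or 0.032 with median centring. Its P467L arrays spanned the non-transgenic values on both sides, and without P467L replicate 2 the difference was 0.155 (limma adjusted p = 0.839).

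Cd14, the coreceptor for bacterial lipopolysaccharide, measured 8.19 and 7.98 against 8.53, 8.18 and 8.32, and Cd68, a lysosomal glycoprotein, 7.54 and 7.68 against 8.09, 7.64 and 7.70. Both were highest in P467L replicate 1, with differences of 0.26 (SE 0.13) and 0.20 (SE 0.16). Without that array Cd68 gave 0.06 and Cd14 0.165. The scavenger receptors Msr1 and Marco were dim, at 6.32 and 4.81 on average. Msr1 read 6.36 in 4 of the 5 arrays and 6.17 in the other, non-transgenic replicate 2. Marco read 4.78 in all P467L arrays. Values that are equal to 2 decimals in 3 or more arrays occurred in 4 markers, Msr1, Marco, Ccr2 and Mpeg1, and in 23% of named genes, and small differences in such genes carry little information.

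**Figure D2:**
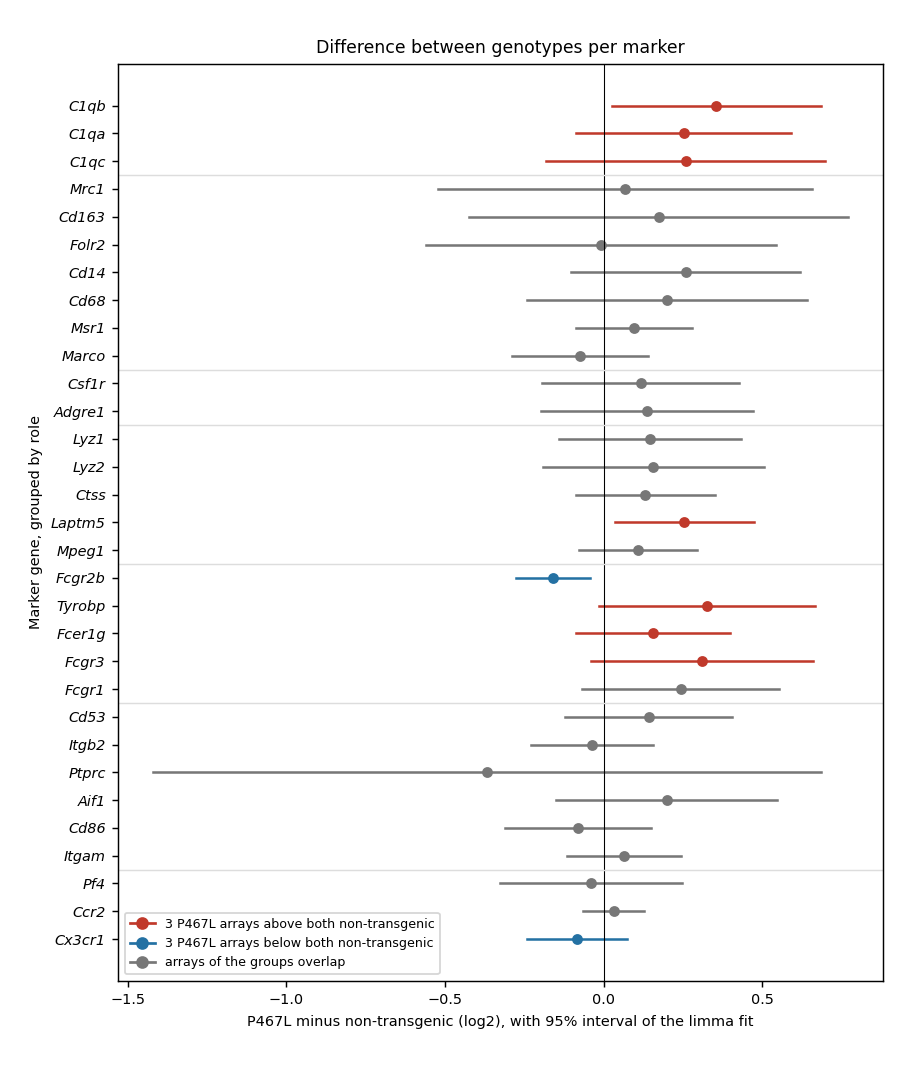
Difference between P467L and non-transgenic aortas (x axis, log2) for each marker, grouped by role (complement C1q, scavenger and uptake receptors, lineage receptors, lysosome, Fc receptors, leukocyte surface, chemokine receptors), with the 95% interval of the limma fit. Of the 31 intervals only those of C1qb, Laptm5 and Fcgr2b leave out 0, and that of Ptprc is the widest.

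The leukocyte surface genes were mixed, with 3 higher and 3 lower. Ptprc, which encodes CD45 and marks all white blood cells, measured 7.37 and 7.68 in non-transgenic aortas and 6.51, 7.28 and 7.68 in P467L replicates 1 to 3. P467L replicate 1 was thus the lowest array for Ptprc while it was the highest for 19 of the 31 markers. In a second probe set of Ptprc, dim at a mean of 3.86, the difference was 0.015. In the brightest it was -0.37 (SE 0.39), and -0.045 without P467L replicate 1. The same array was low in the nuclear RNA Malat1, at 8.03 against 9.45 to 9.87 in the others, and the part of this in the Ptprc value was not tested. Cd53, a tetraspanin of white blood cells, differed by 0.14 (SE 0.10) and Aif1, a calcium-binding protein of macrophages, by 0.20 (SE 0.13). Without P467L replicate 1 each gave 0.09, and without replicate 2 Cd53 gave 0.225. A second probe set of Cd53, dim at a mean of 3.80, gave -0.145 (SE 0.07). Itgb2 and Itgam, the chains of the complement receptor CR3, gave -0.04 (SE 0.07; 0.0033 with each array centred on its median) and 0.06 (SE 0.07), and Itgam was dim, with a mean of 4.92. The costimulatory ligand Cd86 gave -0.08 (SE 0.08), while its dimmer probe set gave 0.28 (SE 0.14).

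Chemokine receptors of monocytes showed little signal. Cx3cr1, the receptor for fractalkine, measured 5.06 and 5.13 against 5.05, 5.05 and 4.93, a difference of -0.085 (SE 0.06) in which P467L arrays lay below by as little as 0.01. Ccr2, the receptor that draws monocytes out of the bone marrow, lay between 7.19 and 7.26 in all arrays, and its other 3 probe sets gave differences of 0.00 to 0.07. Both brightest probe sets lay below the median level of named genes and were not tested against background. Pf4, a chemokine of platelets that resident macrophages also make, was bright at 10.64 to 10.93, with a difference of -0.04 (SE 0.11).

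**Figure D3:**
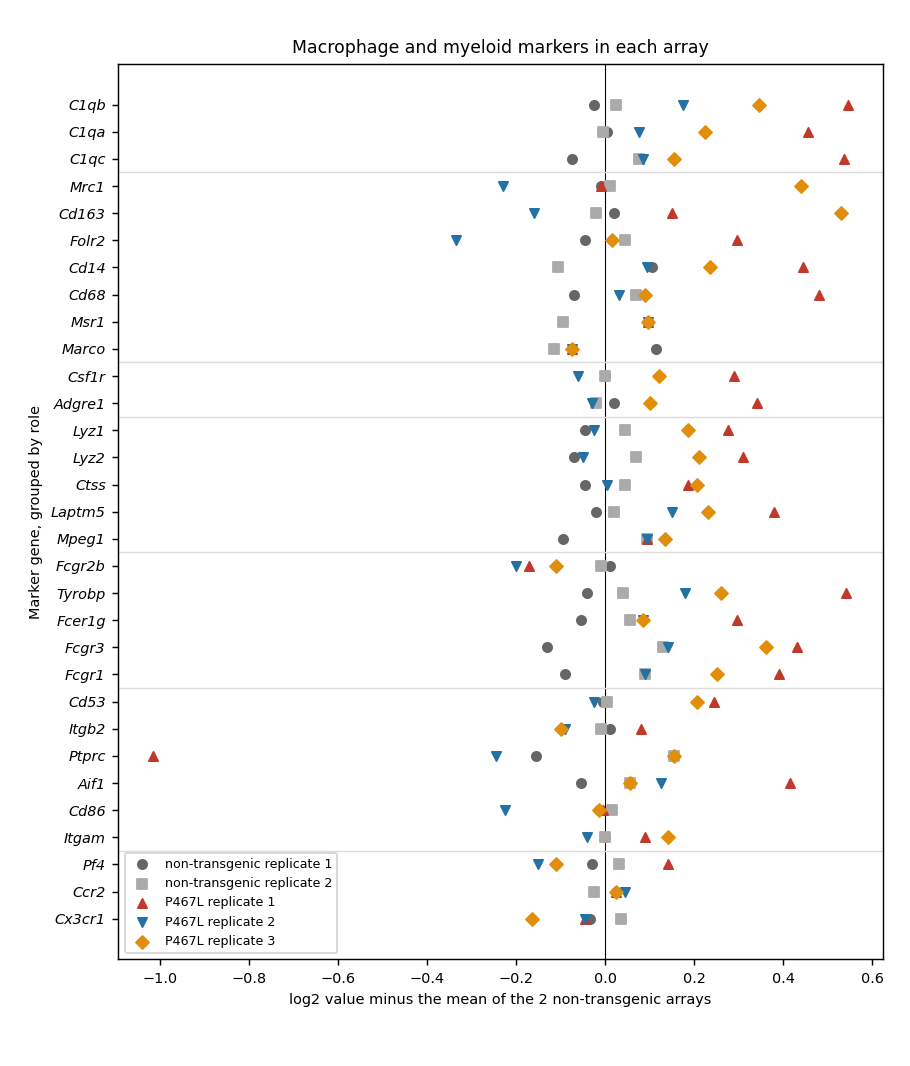
Log2 value of each marker in each of the 5 arrays minus the mean of the 2 non-transgenic arrays (x axis), by marker in role groups (y axis). P467L replicate 1 is farthest to the right for most markers and far to the left for Ptprc. P467L replicate 2 lies near or below the non-transgenic arrays for most markers, and above both for others, among them C1qb, Tyrobp and Laptm5.

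In the median over the markers the P467L arrays lay farther from each other than the genotypes did. Relative to the non-transgenic mean, the median over the 31 markers was 0.28 in P467L replicate 1, -0.03 in replicate 2 and 0.14 in replicate 3, and the controls lay at -0.03 and 0.03. P467L replicate 1 exceeded both non-transgenic arrays in 22 of 31 markers, beside 52.5% of all named genes. Replicate 3 did so in 20 of 31, beside 32.7%, and replicate 2 in 9 of 31, beside 34.9%. Among the 22 bright markers these counts were 19, 18 and 7 for replicates 1, 3 and 2, where the shares of bright genes were 59.8%, 49.2% and 50.1%. In 13 of 31 markers replicate 2 lay below both non-transgenic arrays. The share of all named genes was not computed for this count, so it cannot be read as particular to the markers. P467L replicate 1 was the single highest array in 19 markers, and in 44.2% of all named genes. Among the bright markers it was the single highest in 17 of 22, beside 48% of bright genes. It also had the lowest correlations with other arrays over all probe sets, 0.985 to 0.991. Without it the median difference of the markers was 0.085, with 23 higher and 8 lower, and without replicate 2 it was 0.215. Only 4 markers, C1qb, Laptm5, Tyrobp and Fcgr2b, kept their difference to within 1.5 times whichever single array was left out.

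The summed level of the 31 markers followed the same order. As log2 of the sum it was 14.45 and 14.51 for the controls, against 14.76, 14.46 and 14.65 for P467L replicates 1 to 3. P467L replicate 2 lay between the non-transgenic arrays and the other P467L arrays lay above both. This sum gives the most weight to the brightest probe sets, those of Lyz1, Lyz2 and Csf1r.

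Further genes linked to myeloid cells were read from 6 lists, and 2 genes of the inflammatory list stood out by size. The cells that made these transcripts are not known in RNA of whole tissue, so the lists do not read myeloid cells alone. Trem2 encodes a lipid-sensing receptor that signals through the Tyrobp protein. It measured 6.70 and 6.52 in non-transgenic aortas and 8.25, 7.90 and 7.91 in P467L replicates 1 to 3. The lowest P467L array was 1.20 above the highest non-transgenic array. The difference was 1.41 (SE 0.14, 95% interval 1.03 to 1.79), or 2.66-fold, with a limma adjusted p of 0.206, and it was 1.295 to 1.5 when each array was left out in turn. A second, dimmer probe set of Trem2 measured 5.57 to 5.76 and gave -0.06 (SE 0.07). The first carries the suffix _s_at, which marks probes that match more than 1 transcript.

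Lgals3 encodes galectin-3, a lectin of activated macrophages that other cells also make. It measured 9.17 and 9.32 in non-transgenic aortas and 10.49, 10.45 and 10.33 in P467L replicates 1 to 3, a difference of 1.18 (SE 0.08, 95% interval 0.97 to 1.39), or 2.26-fold. Its limma adjusted p was 0.126. The P467L arrays lay within 0.16 of each other, and P467L replicate 2, in which the 31 markers were at the non-transgenic level, was among them. Only 1 probe set was assigned to Lgals3. Neither gene passed the threshold, and both were taken by the rule of the 2 smallest p in a list.

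**Figure D4:**
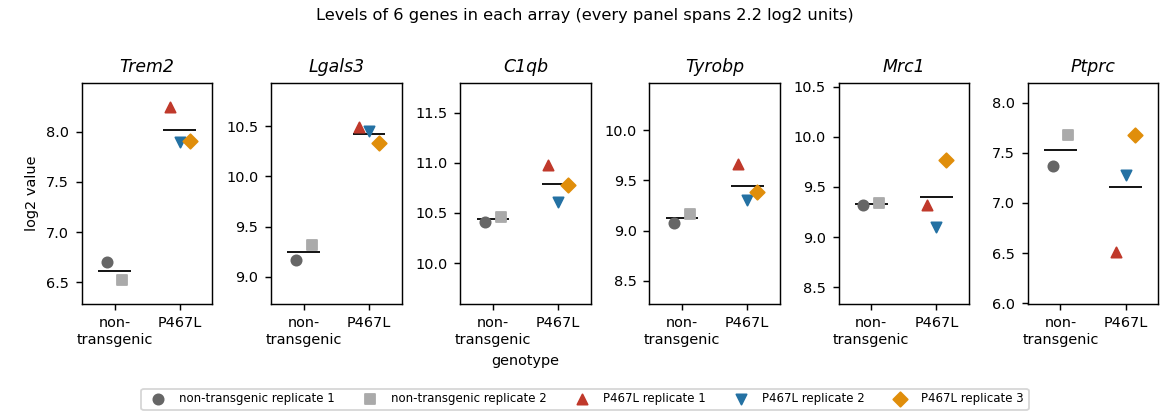
Log2 values of 6 genes in each array by genotype, with group means as lines and every panel spanning 2.2 log2 units. The P467L arrays lie together and apart from the non-transgenic arrays for Trem2 and Lgals3, lie above them by less for C1qb and Tyrobp, and lie on both sides for Mrc1, while P467L replicate 1 is the lowest array for Ptprc.

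Of the monocyte and inflammatory list as a whole 24 of 26 genes were measured, 15 higher and 7 lower, with a median of 0.06 and 0 past the adjusted threshold. All 3 P467L arrays lay above both others in 3 of the 24 and below in 0. The shares of all named genes were 56% with a higher mean, 16.1% above and 6.55% below, and those of bright genes 68.5%, 26.4% and 6.04%. In the complement genes other than C1q 8 of 8 measured genes of 12 were higher, with a median of 0.13 and 0 called. The P467L arrays lay above both others in 4 of these 8 and below in 0. Serping1, the C1 inhibitor, measured 12.95 and 12.99 against 13.16, 13.13 and 13.18, a difference of 0.19 (SE 0.04). C2, which joins the classical pathway convertase, differed by 0.28 (SE 0.08), and its other probe sets gave 0.34 and 0.39. The probe sets of C2 that gave 0.28 and 0.39 have the suffix _x_at, and that which gave 0.34 does not. In this list P467L replicate 2 was near the other P467L arrays, with a median of 0.13 beside 0.20 and 0.19.

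Antigen presentation by MHC class II showed another order of arrays. Of 9 measured genes of 10, 8 were higher and 0 lower, with a median of 0.125 and 0 called, where 68.5% of bright genes were higher. All 3 P467L arrays lay above both others in 3 of the 9, beside 16.1% of all named genes and 26.4% of bright ones. H2-Ab1, a chain of the class II molecule, measured 9.45 and 9.63 against 9.96, 10.06 and 9.73, a difference of 0.38 (SE 0.12). That probe set has the suffix _s_at, and the other probe sets of H2-Ab1 gave 0.235 and 0.27. Cd74, the invariant chain, differed by 0.30 (SE 0.11). P467L replicates 1 and 2 had list medians of 0.285 and 0.255 and replicate 3 had 0.00. P467L replicate 2, the lowest of the P467L arrays in the macrophage markers, thus had a list median above both controls here.

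Lysosome and phagocyte oxidase genes had 13 higher and 5 lower among 18 of 20 measured, with a median of 0.06 and 0 called, where 68.5% of bright genes were higher. All 3 P467L arrays lay above both others in 7 of the 18 and below in 1, beside 26.4% and 6.04% of bright genes. Lgmn, the protease legumain, differed by 0.33 (SE 0.10) and Ctsl, cathepsin L, by 0.145 (SE 0.04). Lineage control and signalling genes had 13 higher and 8 lower among 22 of 25, with a median of 0.065 and 0 called. In 5 of the 22 all P467L arrays lay above both others and in 2 below, beside 16.1% and 6.55% of all named genes. Csf2ra, a chain of the receptor for GM-CSF, measured 7.69 and 7.73 against 7.97, 8.01 and 8.16, a difference of 0.34 (SE 0.07). Its dimmer probe set gave 0.095. Syk, the kinase that acts downstream of Tyrobp and Fcer1g, differed by 0.24 (SE 0.11), or 0.14 without P467L replicate 1. The dimmer probe sets of Syk gave 0.23, 0.09 and -0.02. The resident macrophage genes were split, with 7 higher and 8 lower among 15 of 15, a median of -0.045 and 0 called. Gas6, a ligand of the engulfment receptors Axl and Mertk, gave -0.18 (SE 0.05), and Axl -0.115 (SE 0.05). All P467L arrays lay below both others in 4 of the 15, beside 6.55% of named genes, and above in 0, beside 16.1%. The 4 were Vsig4, which was dim at a mean of 5.37, and the very bright Axl, Gas6 and Selenop, at 12.34, 12.57 and 13.61. In the rest of the list the groups overlapped, with differences from -0.15 for Timd4 to 0.13 for Ms4a7. The 4 genes thus do not speak for the list as a whole. At an unadjusted limma p of 0.05 the higher and lower counts were 2 and 0 for the inflammatory list, 3 and 0 for complement, 2 and 0 for MHC class II, 3 and 1 for the lysosome, 1 and 0 for lineage control, and 0 and 1 for the resident genes, beside 6.94% of all named genes in the higher and 2.51% in the lower direction. The 2 of 24 inflammatory and 1 of 22 lineage control genes are near that background. Of bright genes 11.2% lay past that threshold in the higher and 2.76% in the lower direction. The complement, MHC class II and lysosome lists were bright, with median levels of 8.76, 9.77 and 11.73, so the bright shares are the closer ones for them. Whether their counts exceed those shares was not tested.

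**Figure D5:**
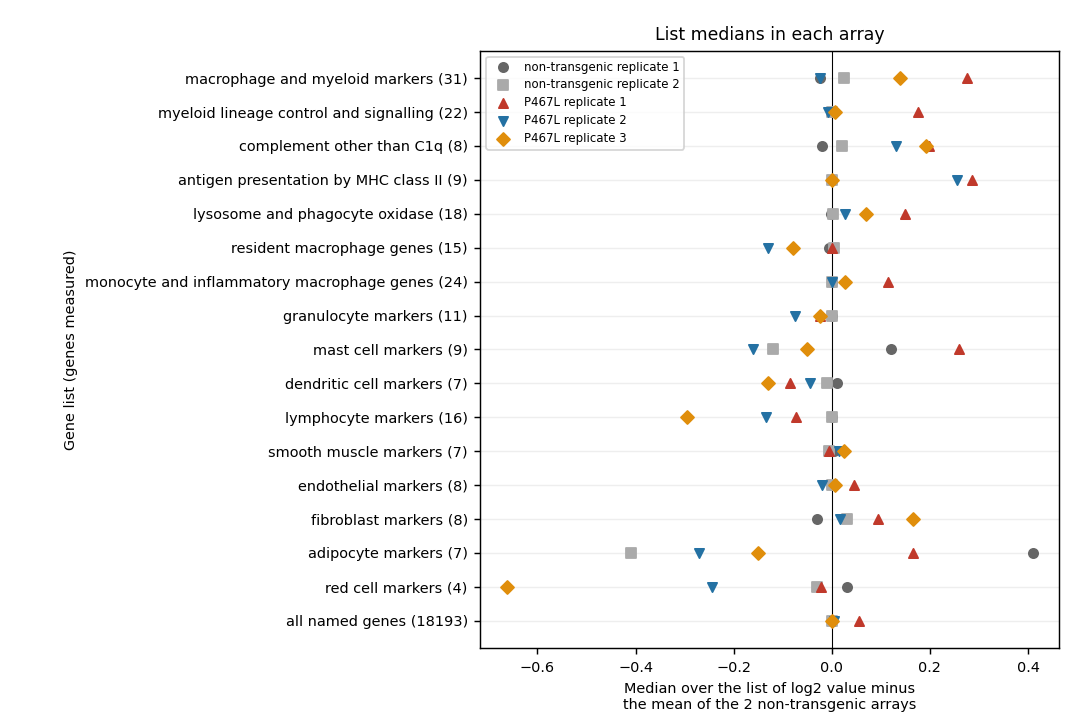
Median over each gene list of the log2 value minus the mean of the 2 non-transgenic arrays (x axis), per array, with the number of genes measured in brackets. For the macrophage and myeloid markers P467L replicates 1 and 3 lie to the right (0.28 and 0.14) and replicate 2 at the non-transgenic level (-0.03), while for MHC class II genes replicates 1 and 2 lie to the right.

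Markers of other cells gave the setting of these values. Lymphocyte markers had a median difference of -0.16, with 15 of 16 measured genes lower and all P467L arrays below both others in 4, beside 6.55% of named genes. Of the 9094 named genes below the median level, where these markers lay, 4884 were lower and 641 had all P467L arrays below both others. The 7 dendritic cell markers had a median of -0.08, granulocyte markers -0.04 over 11 and mast cell markers 0.00 over 9. Smooth muscle markers had 0.015 over 7 genes, with Acta2 between 14.79 and 14.83 in all arrays, and endothelial markers 0.03 over 8, with a range from -1.05 for the sialomucin Emcn to 0.73 for the tight junction gene Cldn5, both larger in size than the difference of any of the 31 markers. Fibroblast markers had 0.07 over 8, adipocyte markers 0.01 over 7 and red cell markers -0.30 over 4. Pparg measured 7.32 and 6.91 against 7.32, 7.27 and 7.27, a mouse probe set that may not read the human transgene and so checks no label. Gastric markers had -0.91 over 11, and Gkn2, a secreted protein of the stomach, measured 13.32 in non-transgenic replicate 2 against 8.79 to 10.23 elsewhere. The adipocyte list lay at 0.41 in one control array and at -0.41 in the other. In these lists 0 genes passed the limma adjusted p of 0.05, and at an unadjusted p of 0.05, which 7.44% of all probe sets passed in either direction, the counts were 2 lower for lymphocyte, 2 higher and 1 lower for endothelial, 3 higher for fibroblast, 1 higher each for mast cell and smooth muscle, and 0 for the remaining lists. That share mixes both directions and counts probe sets, while the list counts are per gene and direction. By gene, 6.94% of all named genes passed in the higher and 2.51% in the lower direction. Among bright genes the shares were 11.2% and 2.76%, the closer ones for the fibroblast list, whose median level was 12.8. Whether the list counts exceed these shares was not tested. The part of these other cells in the values of the macrophage markers was not tested.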

How the data were processed

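The deposited values are log2 expression levels. The authors made them, per the submitters' processing notes, with Affymetrix Power Tools and RMA, whose versions are not stated there. This method corrects background, normalizes all arrays to one distribution and summarises each probe set, so a shift common to most transcripts is not visible. Of 45101 probe sets, 64 controls were left out. Names came from the platform annotation, updated by gene number to GRCm38.p6 symbols: 34945 probe sets had 1 gene, 932 several and 9160 none.

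The comparison between genotypes, taken from that label, used limma 3.58.1 (R 4.3.3; lmFit and eBayes), two-sided, over 45037 probe sets with Benjamini-Hochberg adjustment at 0.05. Total degrees of freedom were 4.23 per test, and the number of arrays limits precision: the median 95% interval of a marker was 0.62 wide. On simulated data for this comparison, 200 of 45037 probe sets were changed, all drawn from those at or above the median level of probe sets. Noise was drawn independently for each probe set and array, so shifts shared by the probe sets of an array were not simulated. Of changes of 1, 2 and 4 log2 units, 50.5%, 84.5% and 94.5% were called. Changes below 1 were not simulated. The largest marker difference in size was -0.37, for Ptprc. The simulated shares therefore do not show how often differences of the size seen in the markers would be called. The pools are described as independent; p-values measure the spread between these pools.

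Named genes were every marker and, from each related list, any called gene or, with none called, the 2 of smallest p. Ccr2, Mpeg1, Malat1, Gkn2 and the probe sets that disagree are given as context. The markers and lists were chosen with earlier results of these data known. Alternatives were scaling, filters, variance models, array weights, a replicate block, left-out arrays, 1 or all probe sets per gene, and Malat1 as a covariate. No batch or scan date was given.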

Additional observations from a re-analysis of the deposited data

How the results depend on the processing

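The median difference of the 31 markers was 0.14 and ran from 0.085 to 0.215 over the fits that left out each array in turn. It was 0.18 with median centring, 0.11 after a second quantile normalization and 0.12 with Malat1 as a covariate. It moved by more than the spread of the array medians, 0.12, only with array weights, to -0.022 by the standard estimate, which did not converge, and to 0.0062 by a gene-by-gene estimate chosen after seeing the data. Both estimates gave P467L replicate 2 the largest weight, 34.1 and 4.61, so these fits set mainly that array against the non-transgenic arrays. Array weights called 2245 probe sets, or 283 by the second estimate, median centring called 15 and 1 probe set per gene called 10. Only the standard array weights called a marker, 1, Fcgr2b at -0.20. With centring, 77.1% of probe sets past an unadjusted p of 0.05 were higher in P467L, against 63.2% as reported.

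Under the standard array weights the sign turned for Adgre1 (-0.028), Cd163 (-0.15), Cd53 (-0.022), Csf1r (-0.057), Itgam (-0.038), Lyz1 (-0.022), Lyz2 (-0.047) and Mrc1 (-0.22), and under the second estimate for Adgre1 (-0.0026), Cd163 (-0.089), Csf1r (-0.029), Itgam (-0.019), Lyz2 (-0.012) and Mrc1 (-0.16). It turned with median centring for Folr2 (0.032) and Itgb2 (0.0033), with the mean over probe sets for Cd53 (-0.0017) and Cd86 (0.098), and without both arrays that stood apart for Ptprc (0.11). With the replicate number as a block Mrc1 gave -0.12 and Cd163 -0.005, and 0 probe sets were called. The deviations of same-numbered arrays correlated at 0.11 and 0.01 over probe sets, and the labels do not tie numbers to a shared source. Over the fits that left out 1 array, Cd163 ran from -0.005 to 0.34, Mrc1 from -0.12 to 0.215, Folr2 from -0.16 to 0.155, Marco from -0.19 to 0.04 and Pf4 from -0.13 to 0.015. Trem2 was 0.67 as the mean of its probe sets. With both kinds of array weights Trem2 (1.29 and 1.31) and Lgals3 (1.20 and 1.20) passed the threshold, and with the standard ones so did Csf2ra (0.30), Serping1 (0.16), C2 (0.27), H2-Ab1 (0.52), Cd74 (0.40) and Axl (-0.15). The cause of these changes was not tested.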
